A study of Mus musculus with 32 samples.

Results

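The matrix metalloproteinases (Mmp), the ADAMTS enzymes (Adamts) and the tissue inhibitors of metalloproteinases (Timp) were followed in a mouse sarcoma and in the stroma around it, in hosts with and without the prostaglandin E2 receptor EP2. The members are all genes whose symbol is Mmp, Adamts or Timp followed by a number, once the RefSeq identifier of each probe had been matched to a mouse symbol. Of 46 such symbols 45 had a probe (22 Mmp, 19 Adamts and 4 Timp genes), out of 45616 gene names on the array. Mmp27 had none. Where a gene had more than 1 probe, as 19 members did, the probe with the highest mean signal over the 32 arrays stood for it. The tumor was MCG 101, a transplantable methylcholanthrene-induced sarcoma whose cells were implanted in EP2 wild-type (EP2+/+) and EP2 knockout (EP2-/-) mice, so the genotype label is that of the host. Whether the implanted cells carry EP2 themselves was not given in the sources used here. Total RNA from tumor and from tumor stroma was measured on one-colour arrays, for both tissues of both host genotypes. Each of the 4 groups held 8 arrays, 4 labelled female and 4 labelled male. Strain, age and the time after implantation were not given in the sources used here, and the numbers in the sample names are all that speaks for separate animals, so p-values measure the spread between these samples.

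Matrix metalloproteinases are zinc-dependent proteases, most of them secreted as inactive proenzymes and some anchored in the cell membrane, that cut collagens, proteoglycans and other matrix proteins. ADAMTS enzymes are secreted relatives with thrombospondin repeats. Some trim the aminopropeptide from procollagen, some cut the proteoglycans aggrecan and versican, and others have narrow substrates. The TIMPs block the active site of metalloproteinases, and in tumors the balance of proteases and inhibitors is studied for its part in invasion and vessel growth. Prostaglandin E2 acts through EP2 to raise cAMP.

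All levels below are log2 signals relative to the 75th percentile of the array, so 0 is the level of that percentile, and levels of different probes are not set against each other. Differences are on the same log2 scale and are given ± SE. Between 47.7% and 74.6% of probes were well above background on an array, and no spot was saturated. On the first principal component (58.8% of the variance) wild-type stroma 65 and 82 lay at 68.5 and 113, among the tumor arrays (30.8 to 160.5), and the remaining 14 stroma arrays between -228 and -21.9. On 5 arrays, wild-type stroma 9, knockout stroma 95 and 99 and knockout tumor 95 and 99, the sex-linked genes did not match the sex label. Ptger2, the gene for EP2, was not lower in the knockout: its levels ran from -5.65 to -2.58 in wild-type and from -3.84 to -2.38 in knockout stroma, and from -6.17 to -3.46 in wild-type and from -5.26 to -3.08 in knockout tumor. Where its probe lies relative to the deleted part is not known, so it checks no label. In stroma the mean level of 7 skeletal muscle markers ran from 2.59 to 9.57, against -3.09 to 6.58 in tumor, and that of 8 fibroblast markers from 2.76 to 4.93 against 2.51 to 3.72. The 7 adipocyte markers ran from -2.41 to 4.79 in stroma and from -4.87 to 0.51 in tumor. The 7 cell cycle genes ran from -4.53 to 3.80 in stroma and from 2.79 to 3.95 in tumor. Of 6 keratinocyte markers Krt1 and Dsg1a were above background on no array of either tissue. In RNA from whole tissue, fewer cells of a type and less RNA per cell cannot be told apart.

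Of the 45 members, 17 were well above background on all 32 arrays. They were Timp1, Timp2 and Timp3, the gelatinases Mmp2 and Mmp9, the membrane-type Mmp14, Mmp11, Mmp19, Mmp23 and Mmp28, and Adamts1, Adamts2, Adamts4, Adamts5, Adamts7, Adamts9 and Adamts14. Another 13 were above background on fewer than 8 arrays and were not tested. These were the interstitial collagenases Mmp1a and Mmp1b, the matrilysin Mmp7, the tooth enamel enzyme Mmp20, Mmp21, the membrane-type Mmp24, the procollagen-processing Adamts3, Adamts12, the von Willebrand factor-cleaving Adamts13, and Adamts16, Adamts17, Adamts18 and Adamts19. Their levels lay between -8.05 and 0.074, and Mmp1a, Mmp7 and Adamts19 were above background on no array. The upper end was Adamts16 on wild-type tumor 5. That array had the highest share of probes above background (74.6%, next 62.5%) and the most outlier spots (483, next 175). Tests were made of genes above background on 8 or more of the arrays compared, which left 32 members for stroma against tumor.

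A run of 10 Mmp genes lies next to each other on mouse chromosome 9 in the order Mmp13, Mmp12, Mmp1b, Mmp3, Mmp1a, Mmp10, Mmp8, Mmp27, Mmp20 and Mmp7 (RefSeq, GRCm38.p6). AP-1, the dimer of Fos and Jun proteins, is a known regulator of several of them, and its motif TGANTCA was searched on both strands in the 250 bases before each gene start. It was found in 8 of the 10 genes of the cluster and in 0 of the other 22 of the 46 genes that have a promoter in the RefSeq set, where 6.75% of 32851 promoters hold it. The 8 were Mmp13, Mmp12, Mmp1b, Mmp3, Mmp1a, Mmp10, Mmp20 and Mmp7. The cAMP response element TGACGTCA was in 0 of these 32 genes, against 1.55% of promoters. The TATA motif TATAAA was in 9 of the 32, 7 of them in the cluster, against 12.4% of promoters. The 100 bases before the gene start are shown for the 5 genes of the cluster that were tested below, all on the plus strand, with the AP-1 motif in capitals. They are chr9:7272414-7272513 for Mmp13, chr9:7347274-7347373 for Mmp12 (the second of its 2 starts), chr9:7445722-7445821 for Mmp3, chr9:7502242-7502341 for Mmp10 and chr9:7558329-7558428 for Mmp8, whose window holds no match.
Mmp13: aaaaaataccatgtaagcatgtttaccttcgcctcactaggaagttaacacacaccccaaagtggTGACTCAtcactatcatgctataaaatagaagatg
Mmp12: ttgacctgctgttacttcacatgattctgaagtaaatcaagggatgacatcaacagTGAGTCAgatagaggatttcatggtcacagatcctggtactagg
Mmp3: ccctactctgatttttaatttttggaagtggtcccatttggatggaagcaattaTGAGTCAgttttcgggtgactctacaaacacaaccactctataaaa
Mmp10: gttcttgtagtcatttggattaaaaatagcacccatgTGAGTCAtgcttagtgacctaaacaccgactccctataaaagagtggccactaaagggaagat
Mmp8: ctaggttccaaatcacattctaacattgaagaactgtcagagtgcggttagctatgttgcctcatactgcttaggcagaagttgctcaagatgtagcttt
A match describes these letters only. The motif began 35 bases before the start in Mmp13, 44 in Mmp12, 46 in Mmp3 and 63 in Mmp10. These neighbours differed in where they were high, as the values below show: Mmp3 was higher in stroma, Mmp10 was above background mostly in tumor, and Mmp12, Mmp13 and Mmp8 did not pass between the tissues.

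The first comparison asked how stroma and tumor differ in these genes. Of the 32 tested members 21 passed an adjusted p under 0.05 (limma), 12 of them higher in stroma and 9 lower. Among all 27096 genes tested 62.8% passed, 25.7% higher and 37.1% lower, so the share of members that passed (65.6%) is near that of all genes. At an unadjusted p under 0.05 there were 21 members and 65.9% of all genes. Of the 21, Timp4, Adamts8, Adamts20, Mmp10 and Mmp16 were above background on 8 or more arrays of the higher tissue only, which brought them into the test, so the counts are a description. The median difference was 0.13 over the members and -0.14 over all genes. In no member were the 16 stroma arrays all on one side of the 16 tumor arrays, which 0.0664% of all genes showed. The inhibitors Timp4 and Timp3, the stromelysin Mmp3 and most proteoglycan-cleaving ADAMTS enzymes were higher in stroma. The gelatinase Mmp9, the stromelysins Mmp10 and Mmp11, the membrane-type Mmp14 and Mmp16 and the procollagen-processing Adamts14 were higher in tumor.

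**Figure D1:**
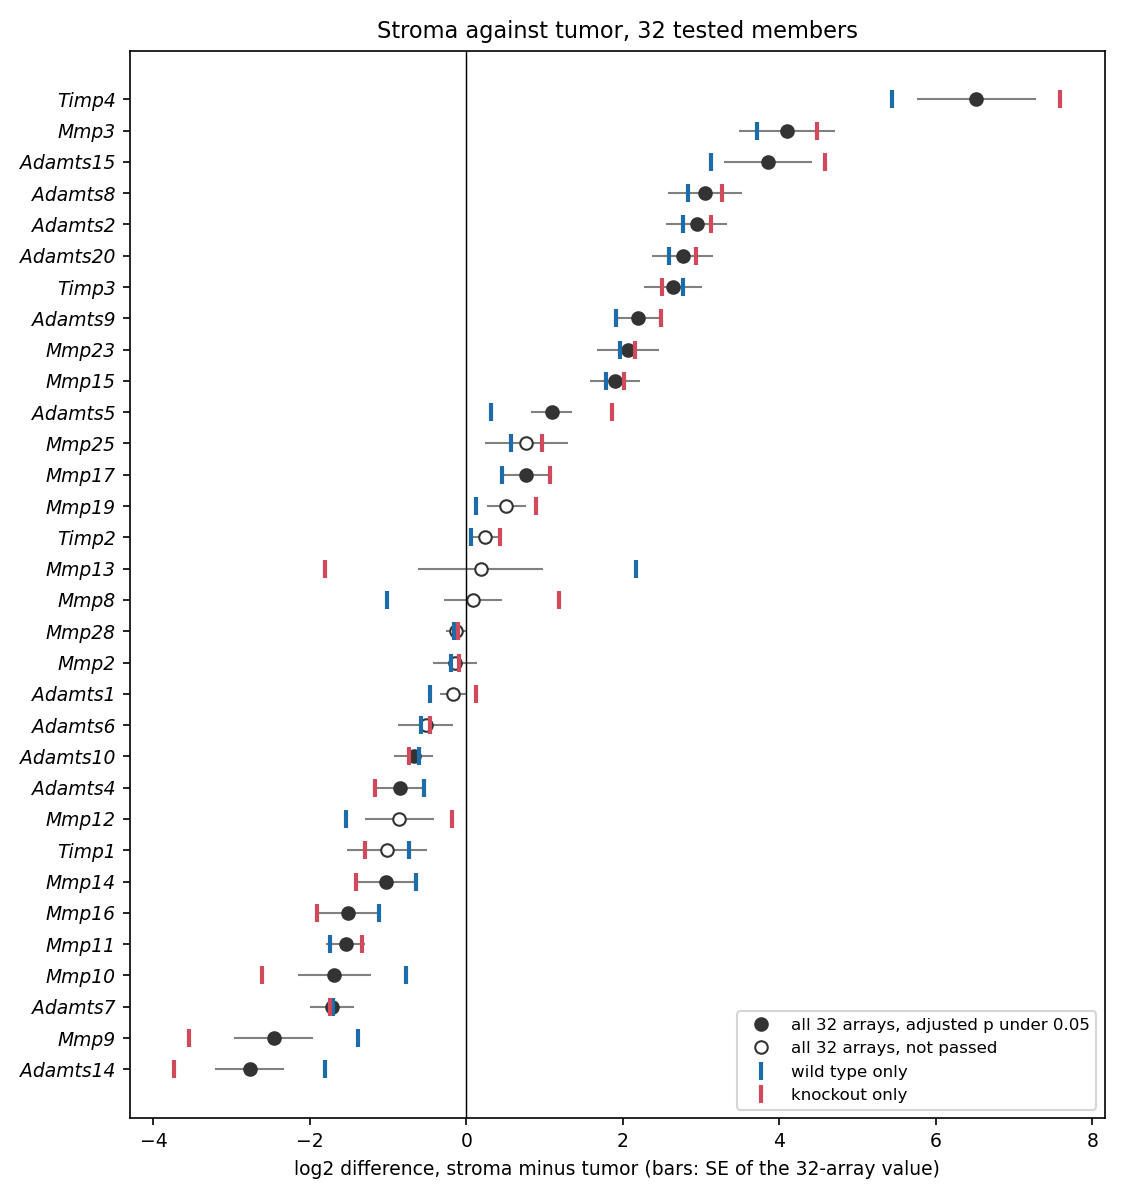
Log2 difference between stroma and tumor (horizontal axis) for each of the 32 tested members, with circles for all 32 arrays (bars: SE), filled where the adjusted p was under 0.05, and ticks for wild-type and knockout hosts alone. Timp4 stands farthest right at 6.52 and Adamts14 farthest left at -2.77, and the ticks of Mmp13 and Mmp8 lie on opposite sides of 0.

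Of the 4 TIMPs, Timp4 and Timp3 were higher in stroma, and Timp1 and Timp2 did not pass. Timp4, an inhibitor known from heart, muscle and fat, ran from -6.01 to 3.82 (median 1.31) in stroma and from -7.39 to -0.84 (median -6.57) in tumor. It was well above background on 15 of 16 stroma arrays and on 4 of 16 tumor arrays, and the tissues overlapped through wild-type stroma 82 at -6.01 and 65 at -3.14 and knockout tumor 15 at -0.84. The fitted difference was 6.52 ± 0.77 (SE, adjusted p = 1.22e-07), and a second Timp4 probe gave 5.03. With 12 tumor arrays not above background, its size rests on background signal in tumor. Timp3, which binds to the matrix and also inhibits ADAMTS enzymes, ran from 1.15 to 5.77 (median 3.97) in stroma and from -0.43 to 2.82 (median 1.03) in tumor. All stroma arrays but wild-type stroma 82, 65 and 45 lay above every tumor array, and the difference was 2.64 ± 0.37 (SE, adjusted p = 1.15e-06). Timp1, a secreted inhibitor induced in many inflamed tissues, ran from -0.65 to 7.06 (median 4.98) in stroma and from 4.69 to 7.97 (median 5.59) in tumor, with wild-type stroma 9 alone below 2. Its difference was -1.01 ± 0.51 (SE, adjusted p = 0.085). Timp2, which also takes part in activating pro-MMP2 on the cell surface, ran from 5.69 to 8.11 (median 6.74) in stroma and from 5.74 to 7.30 (median 6.55) in tumor. The 2 tissues overlapped over nearly the whole Timp2 range, the difference was 0.24 ± 0.19 (SE, adjusted p = 0.273), and a second probe gave -0.19.

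**Figure D2:**
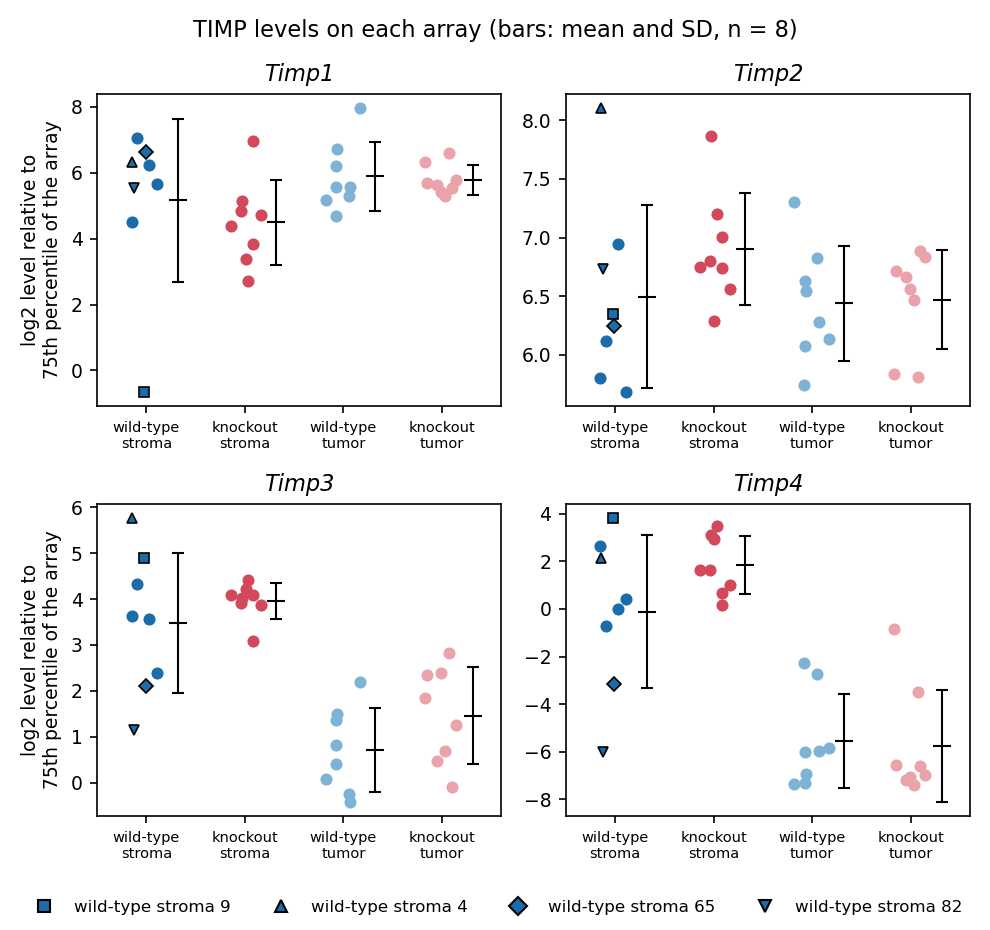
Log2 level of the 4 TIMP genes on every array, by group (vertical axes differ between panels), with the mean and SD of 8 arrays beside the points and black outlines for 4 wild-type stroma arrays. Timp3 and Timp4 are higher in stroma, where wild-type stroma 65 and 82 lie lowest, and wild-type stroma 9 lies alone at -0.65 for Timp1.

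The skeletal muscle, adipocyte, endothelial, smooth muscle and mast cell marker lists were also higher in stroma (7 of 7, 6 of 7, 6 of 6, 6 of 6 and 5 of 5 genes passed). Among all genes 25.7% passed higher and 37.1% lower. Of 8 fibroblast markers 5 passed higher and 2 lower, and of 11 neutrophil markers 2 passed higher and 0 lower. The 7 cell cycle genes were all lower. The part of these lists in the member differences was not tested. On each of the 6 slides Timp4, Timp3, Mmp3, Adamts15, Adamts2 and Adamts5 were higher in stroma, and Adamts14 and Mmp9 were lower. Without wild-type stroma 65 and 82, the arrays that lay with the tumors, 22 members passed, 12 higher and 10 lower, against 21 with all arrays. The share of all genes in that fit is not given here, so this count only describes the members.

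Of the stromelysins Mmp3 was higher in stroma and Mmp11 lower, and Mmp10 was near background in stroma. Mmp3, which cuts proteoglycans and activates other proenzymes, ran from 0.39 to 5.54 (median 3.44) in stroma and from -5.05 to 3.01 (median -0.83) in tumor. Every stroma array lay above the tumor median, and the difference was 4.09 ± 0.61 (SE, adjusted p = 2.57e-06), or 17.1-fold. Mmp10, a stromelysin closely related to it, ran from -7.43 to -2.55 (median -5.89) in stroma, where 4 of 16 arrays were above background, and from -6.59 to -1.29 (median -4.12) in tumor, where 11 were. The fitted difference was -1.69 ± 0.47 (SE, adjusted p = 0.00272), a size that rests on background signal on 12 of the stroma arrays. Mmp11, a stromelysin with weak activity on matrix that is known from tumor fibroblasts, ran from 0.24 to 2.91 (median 1.15) in stroma and from 0.51 to 3.99 (median 3.06) in tumor. All 16 stroma arrays lay below the tumor median for Mmp11, with a difference of -1.54 ± 0.25 (SE, adjusted p = 6.92e-06).

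Among the collagenases and gelatinases Mmp9 passed. Mmp9, the gelatinase stored in neutrophil granules and also made by tumor cells and macrophages, ran from -2.72 to 3.28 (median -0.66) in stroma and from 1.42 to 3.40 (median 2.44) in tumor. The tumor arrays kept to a narrow range near the top of the broad stroma range, the difference was -2.46 ± 0.51 (SE, adjusted p = 0.00014), and a second probe gave -2.54. Mmp2, the other gelatinase, differed by -0.15 ± 0.28 (SE, adjusted p = 0.671). The collagenase of neutrophils, Mmp8, differed by 0.083 ± 0.37 (adjusted p = 0.859) and Mmp13, the main interstitial collagenase of mouse, by 0.18 ± 0.79 (adjusted p = 0.856). Mmp13 spread widely in both tissues, from -6.97 to 1.84 (median -0.95) in stroma and from -6.46 to 1.47 (median -2.84) in tumor. Mmp12, the macrophage elastase, differed by -0.86 ± 0.44 (SE, adjusted p = 0.093), while 6 of 9 macrophage markers were higher in stroma.

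The membrane-type enzymes divided. Mmp15 ran from -3.69 to -0.70 (median -1.81) in stroma and from -5.66 to -2.59 (median -3.58) in tumor, and was higher in stroma by 1.90 ± 0.32 (SE, adjusted p = 1.07e-05). The GPI-anchored Mmp17 was higher by 0.76 ± 0.28 (SE, adjusted p = 0.0191), while the other GPI-anchored enzyme, Mmp25, did not pass (0.77 ± 0.53, adjusted p = 0.211). Mmp14, which activates pro-MMP2 at the cell surface, was lower in stroma. It ran from -2.31 to 2.23 (median 0.079) in stroma and from 0.046 to 2.18 (median 1.35) in tumor, a difference of -1.03 ± 0.36 (SE, adjusted p = 0.0155). Mmp16 ran from -7.84 to -3.12 (median -5.36) in stroma and from -5.19 to -2.13 (median -4.01) in tumor, with a fitted difference of -1.51 ± 0.42 (SE, adjusted p = 0.00282) and 6 of 16 stroma arrays above background, and the 2 tissues overlapped for both genes. With slide as a fixed block the Mmp14 difference, -0.90, did not pass. Mmp23, an enzyme held in the membrane by its aminoterminal end, ran from -1.99 to 2.62 (median 0.20) in stroma and from -3.19 to 0.34 (median -2.16) in tumor. Its difference was 2.06 ± 0.40 (SE, adjusted p = 6.3e-05), with all 16 stroma arrays above the tumor median. Mmp19 (0.51 ± 0.25, adjusted p = 0.076) and Mmp28 (-0.13 ± 0.13, adjusted p = 0.374) did not pass.

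Of the 7 ADAMTS enzymes that cut proteoglycans, 5 were higher in stroma (Adamts20 only as a bound), 1 was lower and 1 did not pass. Adamts15, a cutter of aggrecan and versican, ran from -2.82 to 2.54 (median 0.53) in stroma and from -7.28 to -0.18 (median -3.90) in tumor. The difference was 3.85 ± 0.56 (SE, adjusted p = 1.81e-06), or 14.5-fold. Adamts8 ran from -4.02 to 1.21 (median -2.19) in stroma and from -7.12 to -3.05 (median -4.94) in tumor, a difference of 3.05 ± 0.47 (SE, adjusted p = 4.3e-06). For both genes all 16 stroma arrays lay above the tumor median, and all were above background. In tumor 11 of 16 arrays were above background for Adamts15 and 7 for Adamts8, so both sizes rest in part on background signal. Adamts9, a versican-cleaving enzyme, ran from -0.39 to 2.65 (median 1.77) in stroma and from -1.69 to 0.93 (median -0.86) in tumor, and was higher by 2.20 ± 0.27 (SE, adjusted p = 1.81e-07). Adamts20, its closest relative, was above background on 13 stroma arrays and on 0 tumor arrays, and ran from -6.94 to -1.89 (median -3.77) in stroma and from -7.60 to -4.82 (median -6.69) in tumor. Its tumor levels are only bounds, and with each set no lower than the dimmest probe that its array measured above background, the gene was at least 1.77-fold higher in stroma (adjusted p = 1.56e-06 for the fitted difference, which is against background signal and lacks 1 array). A second Adamts20 probe, above background on 4 arrays, gave 0.22. Adamts5, the main aggrecanase of mouse cartilage, was higher by 1.09 ± 0.27 (SE, adjusted p = 0.000873). Adamts4, the other classical aggrecanase, was lower. It ran from -3.57 to 1.05 (median -0.36) in stroma and from 0.10 to 1.29 (median 0.39) in tumor, a difference of -0.85 ± 0.31 (SE, adjusted p = 0.0203). Adamts1, which cuts versican and restrains vessel growth, differed by -0.17 ± 0.17 (SE, adjusted p = 0.386).

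The 2 tested procollagen enzymes went opposite ways. Adamts2, the main aminopropeptidase of procollagen I in skin, ran from 1.53 to 5.84 (median 3.83) in stroma and from -1.23 to 3.51 (median 0.64) in tumor. It was higher in stroma by 2.95 ± 0.39 (SE, adjusted p = 5.16e-07). Adamts14, which has the same activity, ran from -2.23 to 5.02 (median 2.07) in stroma and from 4.59 to 5.46 (median 5.06) in tumor. The 16 tumor arrays lay within a range of under 1, the stroma arrays spread down to wild-type stroma 9, and the difference was -2.77 ± 0.44 (SE, adjusted p = 5.54e-06), with -2.92 from a second probe. Adamts7, which cuts cartilage oligomeric matrix protein, ran from -2.96 to 0.87 (median -0.95) in stroma and from -0.65 to 2.02 (median 0.68) in tumor, a difference of -1.72 ± 0.28 (SE, adjusted p = 8.32e-06). Adamts10, linked to fibrillin microfibrils, ran from -4.33 to -0.81 (median -2.03) in stroma and from -2.22 to -0.37 (median -1.47) in tumor. Its difference, -0.67 ± 0.25 (SE, adjusted p = 0.0198), was not past the threshold with the mean of its 2 probes (-0.44) or with slide as a fixed block (-0.60). With the 75th percentile taken over probes bright on all arrays, which moves every stroma to tumor difference by 0.13, neither Adamts10 nor Adamts4 passed (-0.55 and -0.73). Adamts6 differed by -0.52 ± 0.35 (SE, adjusted p = 0.202).

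Within each host genotype the same contrast gave 13 members in wild-type hosts, 10 higher in stroma and 3 lower, where 30.2% of all genes passed (11.9% higher and 18.3% lower). In knockout hosts it gave 21, 13 higher and 8 lower, where 59.4% of all genes passed (26.3% higher and 33.1% lower). All the members that passed in wild-type hosts also passed in knockout hosts, in the same direction. The fitted difference of Timp4, above background on 2 of 8 tumor arrays of each genotype, was 5.44 ± 1.08 (SE, adjusted p = 0.000942) in wild-type and 7.59 ± 1.08 (SE, adjusted p = 2.21e-06) in knockout hosts, and its size rests on background signal as before. Timp3 differed by 2.77 ± 0.53 (SE, adjusted p = 0.000643) and 2.50 ± 0.53 (SE, adjusted p = 0.000199). Mmp3 differed by 3.71 ± 0.87 (SE, adjusted p = 0.00331) in wild-type and by 4.47 ± 0.87 (SE, adjusted p = 8.1e-05) in knockout hosts.

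Among the ADAMTS enzymes Adamts15 differed by 3.12 ± 0.79 (SE, adjusted p = 0.00601) in wild-type and by 4.59 ± 0.79 (SE, adjusted p = 2.16e-05) in knockout hosts. Adamts8 differed by 2.83 ± 0.67 (SE, adjusted p = 0.00374) and 3.27 ± 0.67 (SE, adjusted p = 0.000156), and Adamts9 by 1.91 ± 0.38 (SE, adjusted p = 0.000897) and 2.48 ± 0.38 (SE, adjusted p = 4.51e-06). In wild-type and knockout tumor 4 and 7 of 8 arrays were above background for Adamts15, and 4 and 3 for Adamts8. The sizes for these 2 genes rest in part on background signal. The procollagen enzyme Adamts2 differed by 2.77 ± 0.55 (SE, adjusted p = 0.000953) and 3.12 ± 0.55 (SE, adjusted p = 2.72e-05), and its relative Adamts14 by -1.81 ± 0.62 (SE, adjusted p = 0.0305) and -3.73 ± 0.62 (SE, adjusted p = 1.35e-05). Adamts20, above background on no tumor array, was at least 1.31-fold higher in wild-type stroma, where 5 of 8 arrays were above background, and at least 2.38-fold higher in knockout stroma, where 8 were. Adamts7, lower in stroma, differed by -1.70 ± 0.40 (SE, adjusted p = 0.00336) and -1.74 ± 0.40 (SE, adjusted p = 0.000503).

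Of the MMPs, Mmp23 differed by 1.97 ± 0.56 (SE, adjusted p = 0.0118) in wild-type and by 2.15 ± 0.56 (SE, adjusted p = 0.00171) in knockout hosts, Mmp15 by 1.78 ± 0.45 (SE, adjusted p = 0.0056) and 2.01 ± 0.45 (SE, adjusted p = 0.000376), and Mmp11 by -1.75 ± 0.35 (SE, adjusted p = 0.00102) and -1.33 ± 0.35 (SE, adjusted p = 0.00195). A further 8 members passed in knockout hosts and not in wild-type hosts. Of these Mmp9 differed by -1.38 ± 0.72 (SE, adjusted p = 0.137) in wild-type and by -3.54 ± 0.72 (SE, adjusted p = 0.000133) in knockout hosts, Mmp14 by -0.64 ± 0.51 (SE, adjusted p = 0.342) and -1.41 ± 0.51 (SE, adjusted p = 0.0194), and Mmp16 by -1.12 ± 0.60 (SE, adjusted p = 0.147) and -1.91 ± 0.60 (SE, adjusted p = 0.00749). The last value is against knockout stroma with 1 of 8 arrays above background for Mmp16, so its size rests on background signal. Mmp10 was above background on 0 of 8 knockout stroma arrays and on 6 of 8 knockout tumor arrays, and was at least 2.0-fold higher in knockout tumor. Adamts4 differed by -0.54 ± 0.44 (SE, adjusted p = 0.355) and -1.16 ± 0.44 (SE, adjusted p = 0.0262), the second not past the test with the percentile over bright probes (-0.96). Adamts5 differed by 0.32 ± 0.38 (SE, adjusted p = 0.534) and 1.86 ± 0.38 (SE, adjusted p = 0.000136), Mmp17 by 0.45 ± 0.39 (SE, adjusted p = 0.386) and 1.07 ± 0.39 (SE, adjusted p = 0.0208), and Mmp19 by 0.13 ± 0.35 (SE, adjusted p = 0.802) and 0.89 ± 0.35 (SE, adjusted p = 0.031). These pairs of values do not show that the genotypes differ, which the test of genotype by tissue below addresses.

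The second comparison asked whether the stroma of knockout hosts differs from that of wild-type hosts. Of 30 tested members 0 passed (limma, smallest adjusted p = 0.123), as did 0% of 24772 genes. At an unadjusted p under 0.05 there were 8 members, 5 higher and 3 lower in the knockout, beside 28.2% of all genes. The proteoglycan-cleaving Adamts15 and Adamts5 and the stromelysin Mmp3 had the smallest p among members with higher means in the knockout. The collagenase Mmp13, the gelatinase Mmp9 and the procollagen enzyme Adamts14 had the smallest among those with lower means. The other two at that level were Mmp25 (1.58 ± 0.66, adjusted p = 0.147) and Adamts9 (0.85 ± 0.38, adjusted p = 0.165), both higher. Mmp25 was above background on 3 of 8 wild-type and 7 of 8 knockout stroma arrays. It thus entered the test mostly through the knockout, and its size rests on background signal in wild-type stroma.

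Adamts15 ran from -2.82 to 2.54 (median -0.85) in wild-type and from 0.45 to 2.07 (median 1.21) in knockout stroma. The knockout arrays lay close together inside the upper part of the wild-type range, and the difference was 1.73 ± 0.62 (SE, adjusted p = 0.123). Mmp3 ran from 0.39 to 4.65 (median 2.48) in wild-type and from 2.01 to 5.54 (median 4.31) in knockout stroma, a difference of 1.64 ± 0.62 (SE, adjusted p = 0.131). Adamts5 ran from -2.73 to 0.52 (median -1.08) in wild-type and from -1.06 to 1.11 (median -0.12) in knockout stroma, a difference of 1.10 ± 0.42 (SE, adjusted p = 0.131). In all 3 genes the highest wild-type array was wild-type stroma 4. On the 5 slides that held both genotypes in stroma, the knockout mean was higher on 5 for each of the 3 genes. Wild-type stroma 4 and 68 lay on the slide without knockout stroma, so these slide values leave that highest array out.

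Mmp13 ran from -6.97 to 1.84 (median 0.13) in wild-type and from -6.43 to 0.77 (median -4.33) in knockout stroma. Wild-type stroma 9, not above background, was the lowest of all 16 arrays, while the other 7 wild-type arrays lay at -0.79 or above, and 7 of 8 knockout arrays lay below those 7. The difference was -3.15 ± 1.25 (SE, adjusted p = 0.138). Mmp13 was above background on 5 of 8 knockout stroma arrays, so this size rests in part on background signal. Mmp9 ran from -2.34 to 3.28 (median 1.69) in wild-type and from -2.72 to 3.03 (median -1.77) in knockout stroma, where knockout stroma 12 at 3.03 stood apart from the other 7. Its difference was -2.23 ± 0.92 (SE, adjusted p = 0.144). Adamts14 ran from -2.23 to 5.02 (median 3.86) in wild-type and from 0.33 to 2.54 (median 1.16) in knockout stroma, a difference of -1.80 ± 0.83 (SE, adjusted p = 0.173). The wild-type median of Adamts14 lay above the whole knockout range, and wild-type stroma 9 lay below it. Within slides the knockout mean of each of these 3 genes was lower on 4 of 5 slides. On the remaining slide, whose stroma arrays were wild-type stroma 9 and knockout stroma 12, it was higher by 5.86 for Mmp13, 5.37 for Mmp9 and 4.77 for Adamts14.

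**Figure D3:**
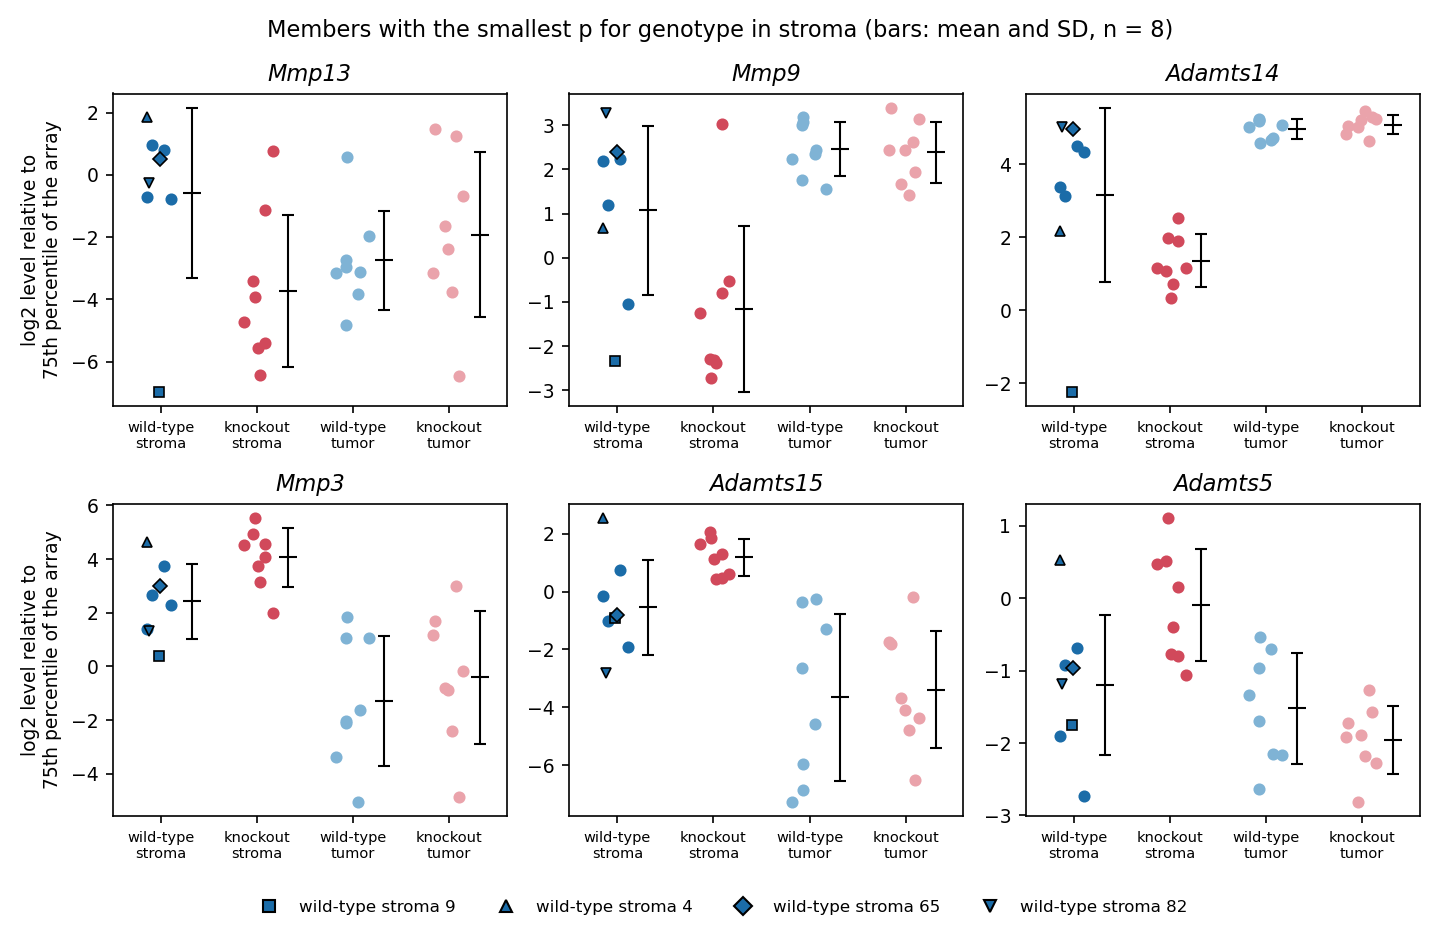
Log2 level of 6 members on every array, by group (vertical axes differ between panels), with the mean and SD of 8 arrays and black outlines for 4 wild-type stroma arrays. In the top row wild-type stroma 9 lies at the bottom of its group, and in the bottom row wild-type stroma 4 lies at the top.

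Of the TIMPs, Timp4 differed by 1.94 ± 1.16 (SE, adjusted p = 0.263) in stroma, with wild-type arrays from -6.01 to 3.82 (median 0.20) and knockout arrays from 0.18 to 3.49 (median 1.64). The knockout arrays lay within the upper part of the wild-type range. Timp3 ran from 1.15 to 5.77 (median 3.61) in wild-type and from 3.09 to 4.41 (median 4.05) in knockout stroma, a difference of 0.48 ± 0.56 (SE, adjusted p = 0.556). Timp1 ran from -0.65 to 7.06 (median 5.95) and from 2.71 to 6.97 (median 4.54), a difference of -0.67 ± 0.92 (SE, adjusted p = 0.626). Timp2 ran from 5.69 to 8.11 (median 6.30) and from 6.29 to 7.87 (median 6.77), a difference of 0.41 ± 0.30 (SE, adjusted p = 0.358). The 2 genotypes overlapped in all 4 inhibitors. Without wild-type stroma 65 and 82 the Timp4 difference was 0.052, that of Timp1 became 0.14 and that of Timp3 became -0.44.

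Which members passed in stroma changed with single arrays. Wild-type stroma 9 was the lowest of its group in 12 of the 32 members and wild-type stroma 4 the highest in 19. Without wild-type stroma 9, 8 members passed, 7 lower in the knockout and 1 higher, beside 33.9% of all genes. Then Mmp13 differed by -4.11 ± 0.96 (adjusted p = 0.00846), a size that rests in part on background signal in knockout stroma. Adamts14 differed by -2.59 ± 0.46 (adjusted p = 0.00589) and Mmp9 by -2.79 ± 0.82 (adjusted p = 0.0207). The others were Adamts7, Mmp14, Adamts4 and Timp1, all lower, and Timp4, higher by 2.71 (adjusted p = 0.0497). Without wild-type stroma 4, 5 other members passed, all higher in the knockout, beside 21% of all genes. They were Adamts15 at 2.23 ± 0.44 (adjusted p = 0.0102), Mmp3 at 2.02 ± 0.55 (adjusted p = 0.025), Adamts5, Adamts9 and Adamts2. Without the arrays that did not match their sex label 6 members passed, all lower (Mmp13, Adamts14, Mmp9, Adamts4, Adamts7 and Mmp14), beside 22.9% of all genes. With array weights 19 members passed, 12 higher and 7 lower, beside 65.2%. Without wild-type stroma 65 and 82, 0 members and 0 of 24451 genes passed, and Adamts14 differed by -0.55 ± 0.61 (adjusted p = 0.824).

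**Figure D4:**
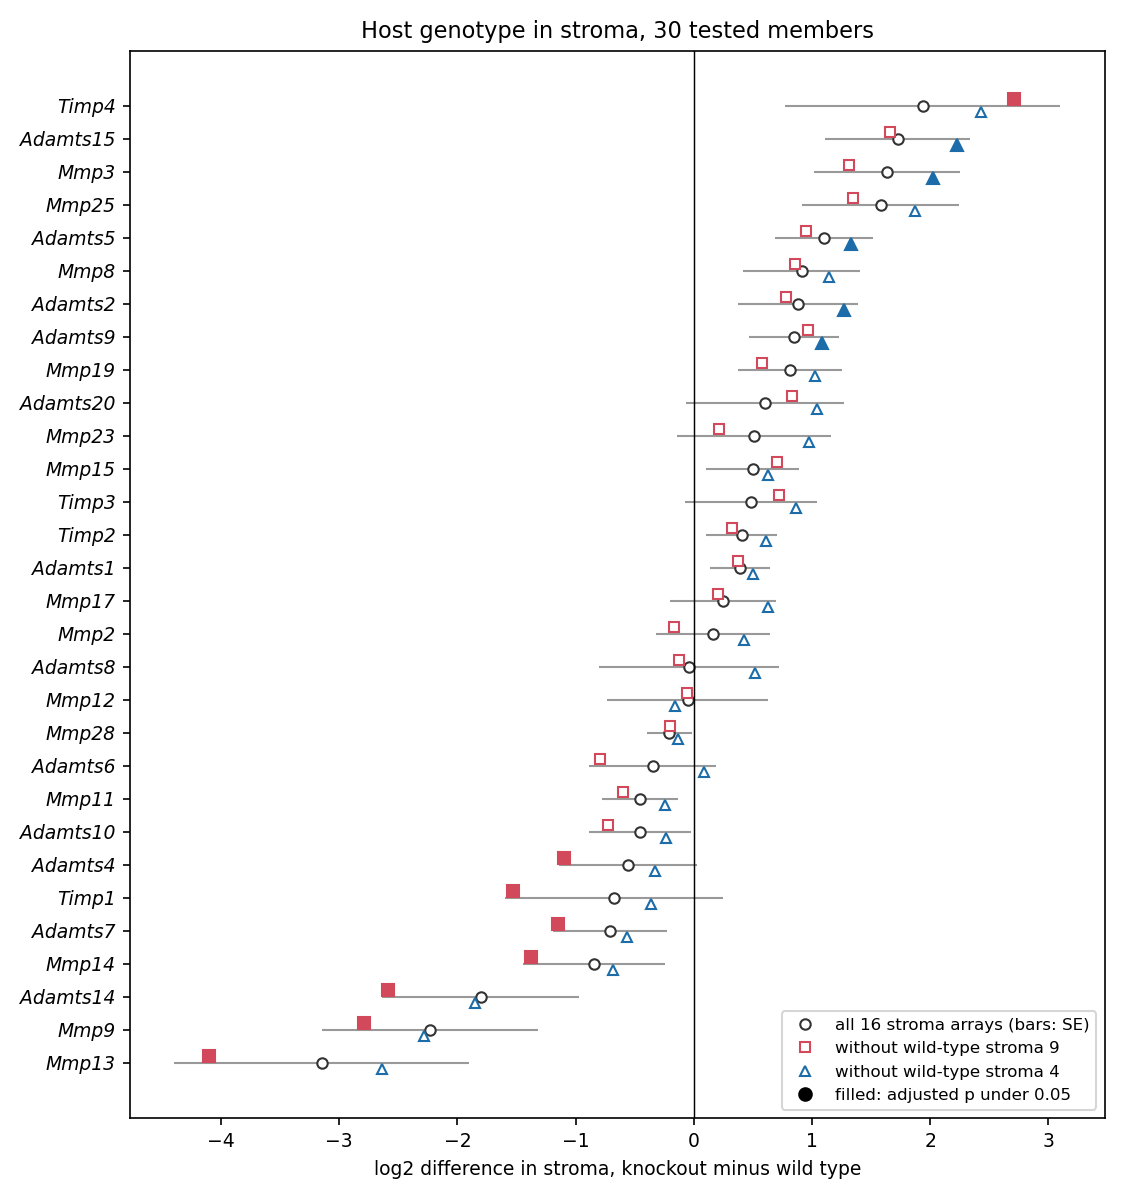
Log2 difference between knockout and wild-type stroma (horizontal axis) for the 30 tested members with all 16 stroma arrays (circles, bars: SE), without wild-type stroma 9 (squares) and without wild-type stroma 4 (triangles), filled where the adjusted p was under 0.05. No circle is filled, 8 squares are, mostly at the bottom, and 5 triangles are, all at the top.

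Marker lists varied with these arrays. The mean of the skeletal muscle markers was 9.57 on wild-type stroma 9, the highest of its group, against 7.57 on wild-type stroma 4 and 2.59 on wild-type stroma 82, and ran from 8.02 to 9.29 in knockout stroma. The cell cycle genes lay at -4.53 on wild-type stroma 9, between 0.66 and 3.80 on the other wild-type stroma arrays, and between -1.26 and 2.48 in knockout stroma. All 7 muscle markers, all 7 adipocyte markers and all 6 endothelial markers had higher means in knockout stroma, and all 7 cell cycle genes lower means, with 0 of each past the test. The part of these tissues in the member values was not tested.

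The third comparison asked the same in tumor. Of 28 tested members 0 passed (limma, smallest adjusted p = 0.976), as did 0% of 23730 genes. At an unadjusted p under 0.05 there were 4 members, all lower in knockout hosts, beside 3.32% of all genes. Mmp12, the macrophage elastase, ran from -5.28 to 0.26 (median -3.39) in wild-type and from -5.99 to -2.31 (median -4.09) in knockout tumor, a difference of -1.41 ± 0.51 (SE, adjusted p = 0.976). It was above background on 7 of 8 wild-type and 5 of 8 knockout tumor arrays. On the 3 slides with tumors of both genotypes, the knockout mean of Mmp12 was higher on 2 and lower on 1 (-1.84 to 1.62). Mmp8, the neutrophil collagenase, ran from -3.79 to 0.11 (median -2.38) and from -5.02 to -2.54 (median -3.30), a difference of -1.28 ± 0.52 (SE, adjusted p = 0.976). Its 4 highest wild-type arrays lay above every knockout array. Adamts7 ran from 0.20 to 2.02 (median 1.18) and from -0.65 to 1.16 (median 0.55), a difference of -0.67 ± 0.25 (SE, adjusted p = 0.976), and every knockout array lay under the median of the wild-type arrays. Mmp11 ran from 1.96 to 3.88 (median 3.24) and from 0.51 to 3.99 (median 2.61), a difference of -0.87 ± 0.36 (SE, adjusted p = 0.976). Among members with higher means in knockout tumor, the smallest p were those of Timp3 (0.75 ± 0.45, adjusted p = 0.976), Adamts2 (0.53 ± 0.56, adjusted p = 0.976) and Mmp13 (0.82 ± 0.88, adjusted p = 0.976). Timp3 ran from -0.43 to 2.18 (median 0.60) and from -0.11 to 2.82 (median 1.55), and Adamts2 from -1.23 to 2.95 (median 0.52) and from -0.74 to 3.51 (median 0.64), with wide overlap. On the 3 slides that held tumors of both genotypes Mmp13 was higher in the knockout on 3, by 2.16 to 4.37. Each of these slides held a single knockout tumor array (81, 95 or 12). The other knockout tumor arrays and wild-type tumor 1 and 82 lay on other slides, and the difference over all 16 arrays does not show this rise. All 7 skeletal muscle markers had higher means in knockout tumor, with 0 past the test. The mean of the neutrophil markers ran from -1.73 to 0.63 in wild-type and from -1.91 to -0.85 in knockout tumor. Of 8 tested neutrophil markers 8 had lower means in the knockout and 0 passed, and Ltf and Ngp were above background on no knockout tumor array. Their part in the Mmp8 values was not tested.

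In tumor Adamts14 kept to a range of 4.59 to 5.24 (median 5.06) in wild-type and 4.63 to 5.46 (median 5.13) in knockout tumor. Mmp13 ran from -4.81 to 0.59 (median -3.04) and from -6.46 to 1.47 (median -2.01). Timp1 (5.90 ± 1.05 and 5.78 ± 0.45, mean ± SD, n = 8) and Timp2 (6.44 ± 0.49 and 6.47 ± 0.42) differed by -0.11 ± 0.32 and 0.031 ± 0.22 (SE). Timp4, near background in tumor, was not tested there, and its levels ran from -7.34 to -2.27 (median -6.00) and from -7.39 to -0.84 (median -6.79).

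Whether the host genotype changes the difference between the tissues was tested as genotype by tissue. Of 32 members 0 passed (limma, smallest adjusted p = 0.128), as did 0% of all genes. At an unadjusted p under 0.05 there were 5 members, 2 with a positive and 3 with a negative value, beside 21.1% of all genes. Mmp8 gave 2.20 ± 0.74 (SE, adjusted p = 0.128), since its knockout mean was higher in stroma (0.91 ± 0.49) and lower in tumor (-1.28 ± 0.52). Adamts5 gave 1.54 ± 0.53 (SE, adjusted p = 0.13), Mmp13 -3.97 ± 1.59 (SE, adjusted p = 0.166), Adamts14 -1.92 ± 0.88 (SE, adjusted p = 0.211) and Mmp9 -2.16 ± 1.01 (SE, adjusted p = 0.221). For the last 2 the tumor differences between genotypes were 0.12 ± 0.13 and -0.071 ± 0.32 (SE). The Mmp13 value rests in part on background signal in knockout stroma. Adamts1 had the third smallest p among positive values, at 0.58 ± 0.34 (SE, adjusted p = 0.313). Without wild-type stroma 9, 4 members passed (Mmp13, Mmp9, Adamts14 and Adamts4), beside 19.6% of all genes. Without wild-type stroma 4, Mmp8 and Adamts5 passed, beside 9.32%. Without the arrays against their sex label 3 passed (Mmp13, Adamts14 and Adamts4), beside 8.04%, and with array weights 14 passed, beside 48.7%. Among the TIMPs Timp4 gave 2.15 ± 1.53, Timp2 0.37 ± 0.38, Timp3 -0.27 ± 0.74 and Timp1 -0.56 ± 1.02 (SE), none past the test.

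A last set of 12 relations asked what varies with the members across the 16 arrays of a tissue (two-sided permutation tests, p-values adjusted over the 12). Mmp8 rose with the mean of the neutrophil markers in stroma (r = 0.79, p = 2e-05, adjusted p = 0.00024; rho = 0.90, adjusted p = 0.00012). It did so in tumor too (r = 0.83, p = 5e-05, adjusted p = 0.0003; rho = 0.79, adjusted p = 0.00135). Without the 2 arrays farthest from the median of the markers r was 0.76 in stroma and 0.75 in tumor, and within the 2 scan days it was 0.78 and 0.75 in stroma and 0.83 and 0.71 in tumor. Mmp9, also a neutrophil product, gave r = 0.29 in stroma (p = 0.268, adjusted p = 0.327; rho = 0.33, adjusted p = 0.263) and 0.34 in tumor (p = 0.197, adjusted p = 0.296; rho = 0.45, adjusted p = 0.127). Within scan days Mmp9 gave -0.50 and 0.46 in stroma and 0.89 and 0.092 in tumor. Without the 2 farthest arrays it gave 0.46 in stroma and 0.069 in tumor, and in stroma 0.58 without wild-type stroma 65 and 82. Mmp12 against the macrophage markers gave 0.29 in stroma (p = 0.272, adjusted p = 0.327; rho = 0.33, adjusted p = 0.263) and 0.18 in tumor (p = 0.504, adjusted p = 0.55; rho = 0.056, adjusted p = 0.84), with 0.18 and 0.20 within scan days in stroma and 0.51 and 0.16 in tumor. Only 9 of 16 stroma and 12 of 16 tumor arrays were above background for Mmp12, which limits what this test can show.

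Timp4 rose with the adipocyte markers in stroma (r = 0.76, p = 0.00086, adjusted p = 0.00258, and rho = 0.75, adjusted p = 0.00324). In tumor the values were r = 0.60 (p = 0.013, adjusted p = 0.026) and rho = 0.82 (adjusted p = 0.00102), but 12 of 16 arrays were not above background for Timp4. On those arrays its level is background signal, so the test cannot tell whether Timp4 varied with the markers in tumor. Without the 2 farthest arrays r was 0.61 and 0.67, and in stroma it was 0.66 without wild-type stroma 65 and 82. Within a genotype r was 0.77 in wild-type and 0.47 in knockout stroma, and 0.64 and 0.57 in tumor. Within scan days it was 0.66 and 0.83 in stroma and 0.60 and 0.60 in tumor. Within the chromosome 9 cluster Mmp3 and Mmp13 rose together in tumor (r = 0.80, p = 0.00029, adjusted p = 0.00116; rho = 0.80, adjusted p = 0.00135). The value was 0.72 without the 2 farthest arrays and 0.86 and 0.72 within scan days. Mmp3 and Mmp10 also rose together in tumor (r = 0.69, p = 0.00317, adjusted p = 0.00761; rho = 0.74, adjusted p = 0.00326), with 0.55 without the 2 farthest arrays and 0.76 and 0.68 within scan days. In tumor 11 of 16 arrays were above background for Mmp10 and 14 for Mmp3, so these values rest in part on background signal. In stroma Mmp3 against Mmp10 gave r = -0.38 (p = 0.146, adjusted p = 0.25; rho = -0.45, adjusted p = 0.127), with 4 arrays above background for Mmp10. In stroma Mmp3 against Mmp13 gave r = -0.10 (p = 0.699, adjusted p = 0.699; rho = -0.071, adjusted p = 0.84), with 12 arrays above background for Mmp13. This r was -0.51 without the 2 farthest arrays and -0.54 and -0.17 within scan days. Within the 8 arrays of a genotype, looked at after the plot was seen and not tested, it was 0.79 in wild-type and -0.39 in knockout stroma. Wild-type stroma 9 was the lowest wild-type array in both genes.

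**Figure D5:**
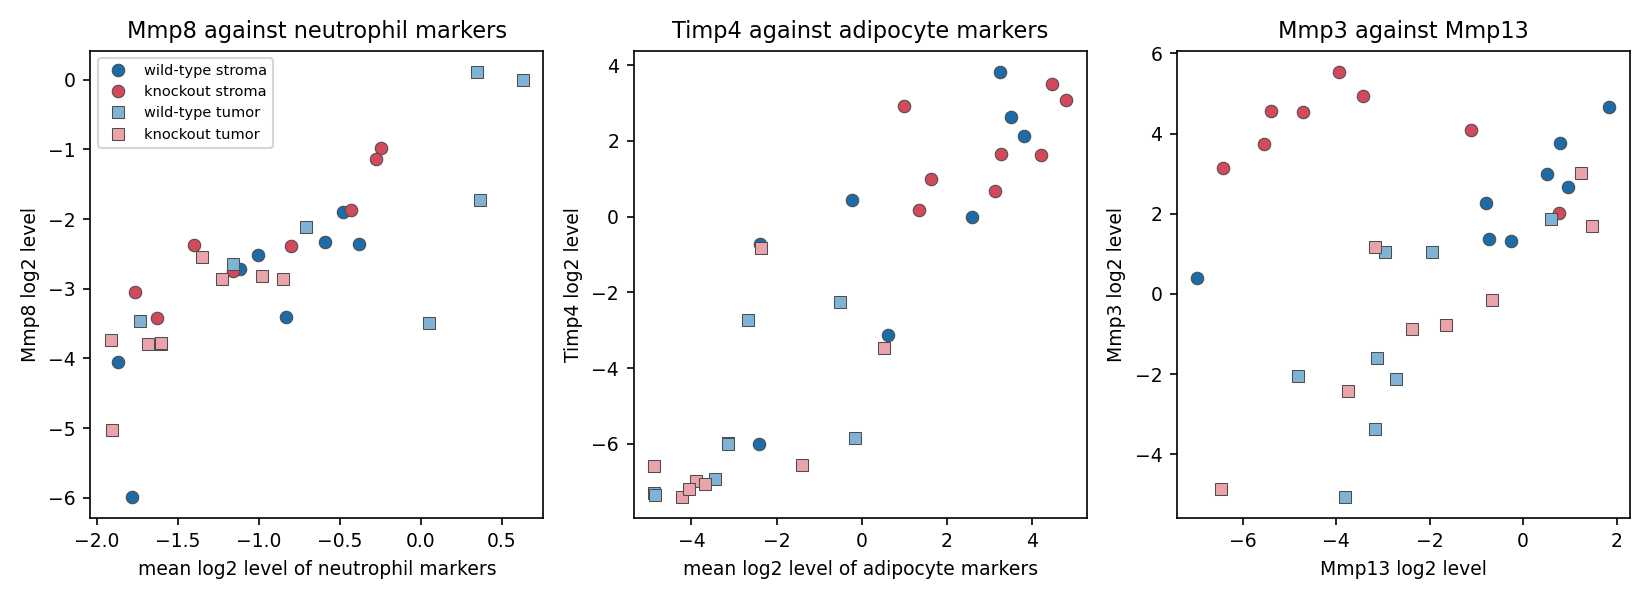
Log2 levels on single arrays of Mmp8 against the mean of the neutrophil markers, Timp4 against the mean of the adipocyte markers and Mmp3 against Mmp13 (circles: stroma, squares: tumor). Mmp8 rises with its marker list in both tissues (r = 0.79 and 0.83) and Timp4 with its list in stroma (r = 0.76). In tumor Timp4 was above background on 4 of 16 arrays. In the right panel knockout stroma lies above and to the left of most other arrays.

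Other genes of matrix turnover were counted from 6 lists. Among all genes 62.8% passed between the tissues (25.7% higher and 37.1% lower), and the counts below are descriptions beside that share. Of 13 tested activators and inhibitors of proteases 3 were higher in stroma and 3 lower. Pcsk6, a convertase that processes proenzymes, differed by 4.07 ± 0.38 and Serpine2, an inhibitor of serine proteases, by 2.15 ± 0.30 (SE). Plaur, the urokinase receptor, differed by -2.18 ± 0.36 and Cd44, a hyaluronan receptor that can hold MMPs at the cell surface, by -1.88 ± 0.35. Of 17 tested substrates 8 were higher and 3 lower. The cartilage protein Comp, a substrate of Adamts7, was higher in stroma by 4.80 ± 0.77, where Adamts7 was lower, and elastin (Eln), a substrate of Mmp12, by 4.42 ± 0.62. The collagen I chains Col1a2 and Col1a1 were higher by 2.71 ± 0.54 and 2.07 ± 0.57. Of 7 ADAM proteases 1 was higher (Adam12, 1.37 ± 0.33) and 3 were lower (Adam8, -1.59 ± 0.39, Adam17 and Adam10). Of 6 ADAMTS-like genes, which share the ancillary domains and lack the protease, 3 were higher (Adamtsl1, 3.93 ± 0.53, Adamtsl2 and Thsd4) and 2 lower. Of 10 collagen-modifying genes 2 were higher (Lox, 3.11 ± 0.66, and Loxl1) and 4 lower (Plod2, -2.42 ± 0.36, the largest). Of 11 inducers and AP-1 or Ets factors 2 were higher and 3 lower, with Fosl1, an AP-1 subunit, at -3.64 ± 0.61, Etv4, an Ets factor, at -2.45 ± 0.29 and Fos at 0.94 ± 0.40. In the genotype comparisons 0 genes of the 6 lists passed in stroma or in tumor.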

How the data were processed

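Each deposited array file holds Agilent Feature Extraction 10.7.3.1 output (per the submitters' processing notes), and its background-subtracted spot intensity, named so per the file headers, was the starting point. A deposited table of log2 values, with scale and centring unstated, was compared with them. Once each probe was centred within its tissue, 99.5% of stroma and 91.3% of tumor values came within 0.01 of those computed here, with column medians between -0.315 and 0.563. It served as an alternative within tissues only.

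Control spots and 58 to 483 outlier spots an array were left out, and spots of a probe were averaged. Levels are log2 signals less the log2 of the 75th percentile (402 to 1133 on the arrays) over 56605 probes, of which 32989 matched a RefSeq symbol. The number of arrays limits the precision. Tests used limma 3.58.1 (R 4.3.3, statmod 1.5.0), with 1 mean per group and sex, over all 32 arrays or, for genotype, within a tissue, and a gene passed below 0.05 after Benjamini-Hochberg adjustment over all genes. A gene needed signal well above background on 8 arrays and lacked at most 2 values. Relations used 100000 permutations (Python 3.11.15, scipy 1.17.1). Alternatives were other background correction and scaling, filters, the mean of all probes, robust variance, array weights, slide or replicate number as a block, no sex term and arrays left out. Scripts were tested on simulated data.

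The members, lists and alternatives were chosen with earlier results of these data known. The rule for names gave full values to the TIMPs and, per comparison, to up to 10 largest rises and falls among members that passed, or, where none did, to the 3 members of smallest p on either side. Mmp11 in tumor, Adamts5 and Mmp17 between tissues and the list genes with the largest differences are described too. Arrays lay on 6 slides scanned on 2 days. Normexp used the median spot signal.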

Additional observations from a re-analysis of the deposited data

Results flagged for a closer look

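In 9 of 104 groups of 8 arrays 1 array lay far from the others, where chance gives about 1 in 20. Wild-type stroma 9 was the low array in 5 of them: Mmp13 at -6.97 (next -0.79, and not above background), Adamts14 at -2.23 (next 2.17), Adamts4 at -3.57 (next -0.48), Adamts10 at -3.76 (next -2.14) and Timp1 at -0.65 (next 4.49). Knockout stroma 12 was the high array for Mmp9 at 3.03 (next -0.52) and the low array for Timp3 at 3.09 (next 3.88). Knockout stroma 81 was the low array for Adamts4 at -2.31 (next -0.86). Wild-type tumor 1 was the low array for Mmp11 at 1.96 (next 3.11).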

How the results depend on the processing

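Where no share of all genes stands beside a count below, the count only describes the members. Counts of members that passed changed by over 1.5 times in these settings. With a filter on signal above background on all arrays, which left 17 members to test, 11, 7 and 12 passed for stroma against tumor over all hosts, in wild-type and in knockout hosts. With array weights 19 passed for genotype in stroma (beside 65.2% of all genes) and 14 for genotype by tissue (48.7%). Without arrays against their sex label these were 6 and 3. With all 32 arrays in 1 fit 3 passed for genotype in stroma (16% of all genes). Leaving out 1 array at a time gave 21 to 23, 12 to 15 and 20 to 23 members for the tissue comparisons, 0 to 4 for genotype by tissue, 0 to 8 for genotype in stroma and 0 to 0 in tumor. The cause of these changes was not tested, beyond the smaller number of genes under the filter. The sign of a few small differences turned. In wild-type hosts the stroma to tumor difference of Timp1 became 0.32 with array weights and 0.12 without arrays against their sex label, and that of Timp2 became -0.065 with the mean of all probes, -0.077 with array weights and -0.020 with slide as a fixed block. For genotype by tissue Timp1 became 0.46 with slide as a fixed block and 0.25 without wild-type stroma 65 and 82, and Timp3 became 0.74 with array weights. For genotype in stroma without wild-type stroma 65 and 82 Timp1 became 0.14 and Timp3 -0.44. For genotype in tumor Adamts2 became -0.12 with the mean of all probes, Timp1 0.074 with slide as a fixed block and 0.085 without arrays against their sex label, and Timp2 -0.041 with the 75th percentile of bright probes and -0.19 without arrays against their sex label. Leaving out 1 array gave -1.09 to 0.12 for Timp1 and -0.15 to 0.19 for Timp2 (tissue, wild type), -0.66 to 0.11 for Timp3 (genotype by tissue), and -0.34 to 0.13 for Timp1 and -0.074 to 0.16 for Timp2 (genotype, tumor). The relation of Mmp9 to neutrophil markers in stroma was -0.50 on scan day 1. Stroma and tumor arrays share 15 sample numbers, and the labels do not say whether a number is 1 animal, so no pairing was assumed. Correlations of the shared numbers ran from -0.044 to 0.34, with 3 stroma arrays closest to their own number and none ranked below 9 of the 16 tumor arrays. Numbers 95 and 99 went against their sex label in both tissues, and number 9 in stroma only. These values do not settle whether a number is 1 animal. With the replicate number as a random block 21, 14 and 22 members passed for the tissue comparisons and 0 for genotype by tissue, and with a fixed block 21, 13, 20 and 0. With the random block in the fit of all 32 arrays 3 passed for genotype in stroma, as without it. Signal near background limits Mmp10, Mmp12, Mmp16, Mmp25, Adamts6 and Adamts20. It also limits Mmp13 in stroma and Timp4, Adamts8 and Adamts15 in tumor.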
